A study of Macaca mulatta with 33 samples.

Results

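The 27 genes described here are targets and regulators of the sterol regulatory element binding proteins (SREBPs), measured in whole corpora lutea of rhesus macaques on Affymetrix Rhesus Genome arrays. The list held 35 genes of the pathway, and a gene entered where at least 1 probe set carried its symbol and no other. That held for 27 of the 35, with 58 probe sets, out of 14132 genes and 52766 probe sets on the array. By role they are 13 enzymes of sterol synthesis, 7 enzymes of fatty acid synthesis and 7 regulators or sterol carriers. GGPS1, LSS, MSMO1, SC5D, ACAT2, SCD, FADS1 and LPIN1 were not analysed here. All 27 genes passed the filter on low values, with 55 of their 58 probe sets, and each is represented by the brightest of its kept probe sets.

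SREBPs are transcription factors held in the endoplasmic reticulum membrane by SCAP, a sterol sensor, and by the INSIG proteins. When membrane sterol falls, SCAP escorts the SREBP to the Golgi, where it is cut, and the freed part enters the nucleus and switches on genes of sterol and fatty acid synthesis. INSIG1 is itself such a target, and it acts as a brake. The corpus luteum makes progesterone from cholesterol, most of which it takes up from lipoproteins, and synthesis within the cell is a further source.

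The animals were adult cycling females. Human chorionic gonadotropin (hCG), the hormone that keeps the corpus luteum alive in pregnancy, was given to simulate early pregnancy. Some females also received trilostane (TRL), an inhibitor of 3-beta-hydroxysteroid dehydrogenase and so of progesterone synthesis, and some received TRL with R5020, a synthetic progestin. Untreated tissue was taken on luteal day 10 (8 arrays). Tissue after 1 day of hCG was taken on day 10, with hCG alone, hCG and TRL, or hCG, TRL and R5020 (4 arrays each). Tissue after 6 days of hCG was taken on day 15 in the same 3 groups (5, 4 and 4 arrays). No untreated day 15 group was analysed here, so in any comparison of day 15 with untreated tissue the length of hCG treatment and the luteal day cannot be told apart. Whether each array came from a separate animal is not stated in the labels, so the p-values cover only the spread among these samples, which may be technical.

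By their array names the arrays fall into 3 sets, over which the groups are spread unevenly. Set 1 held untreated replicates 1 to 4, both day 10 groups without R5020 that had hCG, and all but 1 of the day 15 hCG arrays. Set 2 held untreated replicates 6 to 9, all day 10 arrays with R5020, and all but 1 of the day 15 arrays with TRL and of those with R5020. The 1 remaining array of every day 15 group made up set 3. Untreated tissue is the only group with arrays of both set 1 and set 2, so the fitted difference between these sets rests mainly on it. In the fit the SREBP genes ran higher in set 2 than in set 1, with a median difference of 0.35 on the log2 scale and 24 of 27 above 0, against 0.06 over all probe sets. FASN, ACACA and SREBF2 passed the test for that difference, at 0.72, 0.78 and 0.48. Of all 28911 kept probe sets, 1622 passed as higher and 182 as lower in set 2, and 17970 lay above 0. Array set was therefore a term in every test, and all levels below are log2 intensities adjusted to the scale of set 1. The titles of 12 arrays (untreated replicates 1 to 4, all day 10 hCG and 4 of the 5 day 15 hCG arrays) also bear the mark of a reanalysis. All day 10 hCG arrays bear it and no array with TRL does, so for TRL added to 1 day of hCG mark and treatment cannot be told apart. Within set 1 the same holds for day 10 TRL against untreated tissue. On day 15, every hCG sample as counted below holds a marked array and no TRL sample does. Untreated arrays of set 1 bear the mark and those of set 2 do not, so the array set term takes in the mark as well. How far that term removes the mark from the day 15 TRL comparison was not tested.

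Some arrays stood unusually close together. Replicates 3 and 5 of day 15 hCG bear 1 common sample number in the array names and differed by an SD of 0.201 across probe sets, so they were averaged and counted as 1 sample. Replicate 4 of day 15 TRL and replicate 4 of day 15 R5020, which belong to different groups, differed by an SD of 0.192. For the 27 genes the median absolute difference of that last pair was 0.11 and the largest 0.38. The next closest of the 528 pairs of arrays was at 0.318, and the median at 0.476. Results at day 15 are given with and without set 3, which holds both replicate 4 arrays and hCG replicate 3. The luteal steroidogenic marker STAR lay near the top of the scale in every group, from 14.48 to 14.78 in the group means.

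After 1 day of hCG, genes of sterol synthesis stood above untreated tissue as a block, while fatty acid genes moved less and no regulator passed the test. A gene passed, and is said to have risen or fallen, at a Benjamini-Hochberg adjusted p under 0.05 over all 28911 kept probe sets in limma, two-sided and with no fold minimum. Of the 27 genes, 10 rose and none fell, against 3.41% of all probe sets higher and 1.28% lower. These were 9 of 13 sterol genes and 1 of 7 fatty acid genes. All 13 sterol genes lay above 0, as did 61.7% of all genes tested, with a median log2 change of 0.96 against 0.06 over all genes tested. The median was 0.60 for the fatty acid genes, again all above 0, and 0.24 for the regulators, 4 of 7 above 0. An unadjusted p under 0.05 in limma was reached by 11 of 13 sterol genes, 5 of 7 fatty acid genes and 1 of 7 regulators. Of all 28911 probe sets, 5761 reached it. The difference between the lists was not tested.

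**Figure D1:**
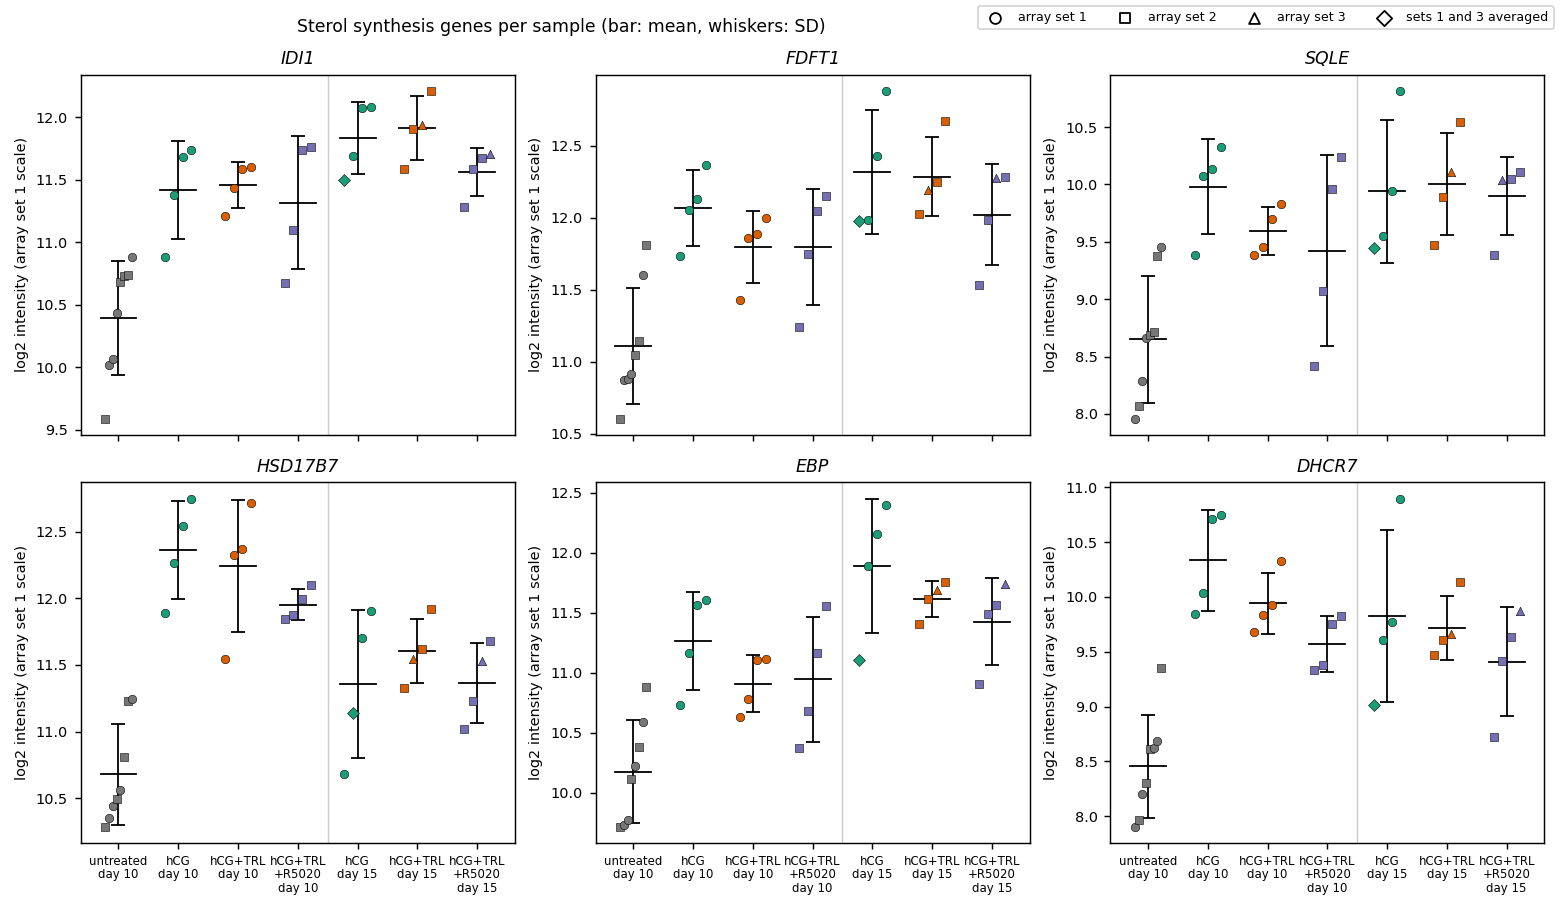
The log2 intensity, on the scale of array set 1, of 6 sterol synthesis genes in each of the 32 samples of the 7 groups. Points are samples with their array set as the symbol, bars are group means and whiskers the SD. For HSD17B7 and DHCR7 the lowest day 10 hCG sample (11.89 and 9.84) lies above the highest untreated sample (11.25 and 9.35).

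The early enzymes of the pathway turn mevalonate into the isoprenoid units from which sterols are built. IDI1, which interconverts the isoprenoid building blocks, lay between 9.59 and 10.88 in the untreated samples, with a median of 10.56. After 1 day of hCG its samples were at 10.88, 11.38, 11.74 and 11.68. The lowest of these met the highest untreated sample and the other 3 lay above it, and IDI1 rose by 1.03 ± 0.26 (log2 change ± SE, adjusted p = 0.02, limma). The kinases MVK and PMVK, which phosphorylate mevalonate, were 0.32 and 0.16 above untreated tissue, and MVD, the decarboxylase after them, 0.72, none past the threshold. Of the other MVK probe sets, 2 did pass. FDPS, which joins the units into farnesyl diphosphate, differed by 0.14, its largest difference from untreated tissue in any of the 6 treated groups.

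Squalene synthesis and the closing of the sterol ring come next. FDFT1, squalene synthase, ran from 10.60 to 11.81 in untreated tissue (median 10.98) and was at 11.73, 12.05, 12.37 and 12.13 with hCG. The groups touch only at the highest untreated and the lowest hCG sample, and FDFT1 rose by 0.96 ± 0.25 (adjusted p = 0.024). SQLE, squalene epoxidase and a rate-limiting step, rose by 1.33 ± 0.36 (adjusted p = 0.033), and CYP51A1, the lanosterol demethylase, by 0.98 ± 0.28 (adjusted p = 0.039). TM7SF2, a sterol reductase, rose by 0.75 ± 0.22 (adjusted p = 0.046). NSDHL, which works with HSD17B7 in removing methyl groups from the sterol ring, rose by 0.91 ± 0.24 (adjusted p = 0.026).

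Of the late steps, HSD17B7 and DHCR7 showed the largest changes among the 27 genes. HSD17B7, the keto-reductase of sterol demethylation that can also make estradiol, lay between 10.29 and 11.25 in untreated tissue (median 10.53). With hCG its samples were at 11.89, 12.26, 12.54 and 12.75, so that the groups did not overlap. HSD17B7 rose by 1.68 ± 0.26 (adjusted p = 0.00045). EBP, the sterol isomerase, ran from 9.72 to 10.88 (median 10.16) and reached 10.73, 11.17, 11.61 and 11.56 with hCG. It rose by 1.09 ± 0.28 (adjusted p = 0.025), with its lowest hCG sample inside the untreated range. DHCR7, the reductase of the last step to cholesterol, ran from 7.91 to 9.35 (median 8.46) without treatment and stood at 9.84, 10.04, 10.71 and 10.75 with hCG. Its groups did not overlap, and it rose by 1.88 ± 0.32 (adjusted p = 0.001). CYP51A1 and TM7SF2 did not overlap either, and over all probe sets 4.56% were separated in that direction.

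Among the fatty acid genes, ACACA passed. ACACA, acetyl-CoA carboxylase, makes malonyl-CoA and so commits carbon to fatty acid synthesis. It lay between 8.51 and 8.90 in untreated tissue (median 8.76) and at 8.89, 9.51, 9.67 and 9.41 with hCG, a rise of 0.64 ± 0.16 (adjusted p = 0.022). FASN, the fatty acid synthase, ran from 7.63 to 8.13 (median 7.87) and was at 7.89, 8.70, 8.96 and 8.74. Thus 3 of the 4 hCG samples lay above every untreated one, and replicate 1 did not. The FASN change of 0.69 ± 0.22 had an adjusted p of 0.068. ACSS2, an acetyl-CoA synthetase, was 0.60 higher, ELOVL6, an elongase, 0.50, FADS2, a desaturase, 0.92 and ACLY, which supplies acetyl-CoA from citrate, 0.20, none past the threshold. ELOVL5, another elongase, was 0.04 higher and close to the limit of the filter on low values, which it exceeded in 11 of 33 arrays.

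Among the regulators, INSIG1 ran from 9.08 to 10.31 in untreated tissue (median 9.19) and was at 9.50, 9.91, 10.26 and 10.46 with hCG. The ranges overlapped, and the change of 0.65 ± 0.33 did not pass (adjusted p = 0.27). SREBF1, which encodes the factor more tied to fatty acid genes, ran from 8.83 to 9.78 (median 9.34) and was at 8.80, 9.59, 9.58 and 9.13. It differed by -0.03 ± 0.20 (adjusted p = 0.95). SREBF2, which encodes the factor more tied to sterol genes, ran from 9.23 to 9.88 (median 9.53) and was at 9.77, 9.76, 10.13 and 9.94. All 4 hCG samples lay above its untreated median, and the change of 0.40 ± 0.14 had an adjusted p of 0.096. INSIG2, SCAP, the sterol carrier STARD4 and the sterol-responsive membrane protein TMEM97 differed by -0.07, 0.24, -0.16 and 0.32.

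The calls for HSD17B7 and DHCR7 held with any 1 sample left out, and the other 8 did not. The number of genes past the threshold fell to 2 without untreated replicate 1, untreated replicate 4 or hCG replicate 3, to 3 without hCG replicate 4 and to 6 without untreated replicate 2, and each of the 8 calls ended without at least 1 of these (adjusted p from 0.051 to 0.16). The TM7SF2 call also ended without untreated replicate 3, 6, 8 or 9 or hCG replicate 2, the SQLE and ACACA calls without hCG replicate 2, and the ACACA call within set 1 or without the array set term (adjusted p of 0.11 and 0.53). The SQLE, TM7SF2 and EBP calls also ended without that term, those of TM7SF2 and NSDHL within set 1, those of SQLE, CYP51A1 and TM7SF2 without the filter on low values, and that of TM7SF2 with day 15 hCG replicates 3 and 5 as 2 samples (adjusted p from 0.051 to 0.12). Day 10 hCG replicate 1 was the lowest of its group for 21 of the 27 genes. Of 10 further probe sets of the risen genes, all 10 passed too.

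**Figure D2:**
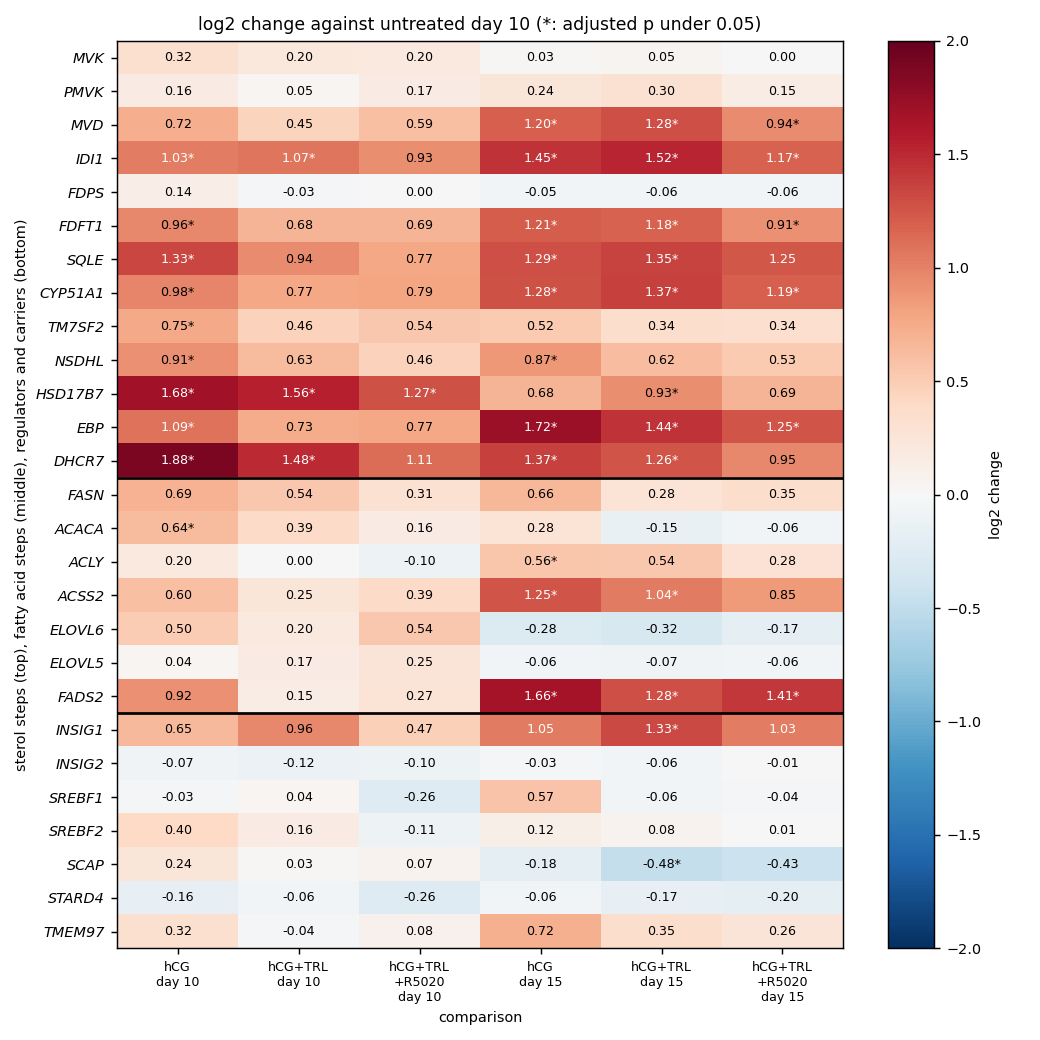
Fitted log2 change of each of the 27 genes in the 6 treated groups against untreated day 10 tissue, with sterol genes at the top, fatty acid genes in the middle and regulators at the bottom. An asterisk marks an adjusted p under 0.05, which 10 genes reach with 1 day of hCG and 11 with 6 days. All 6 comparisons share the same 8 untreated samples.

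After 6 days of hCG, sterol genes again stood above untreated tissue, and ACSS2, FADS2 and ACLY of the fatty acid genes rose as well. Of the 27 genes, 11 rose and none fell, against 3.31% of all probe sets higher and 1.69% lower. The risen genes were 8 of 13 sterol genes and 3 of 7 fatty acid genes. The median change was 1.20 for the sterol genes, 12 of 13 above 0, 0.56 for the fatty acid genes and 0.12 for the regulators, against 0.04 over all genes. Of all genes 57.8% lay above 0. Both hCG groups were set against the same untreated samples, so their values are given side by side and not as separate evidence.

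MVD, at 8.30 to 9.20 in untreated tissue (median 8.61), was at 9.60, 9.58, 9.59 and 10.68 after 6 days. Every day 15 hCG sample lay above the untreated range, with replicate 4 well above the others, and MVD rose by 1.20 ± 0.24 (adjusted p = 0.0031). IDI1 was at 11.69, 12.08, 11.50 and 12.08 and rose by 1.45 ± 0.25 (adjusted p = 0.00073). FDFT1 was at 12.43, 11.98, 11.98 and 12.88 and rose by 1.21 ± 0.24 (adjusted p = 0.0027). Neither gene overlapped with untreated tissue, as was so for 3.4% of all probe sets in that direction. CYP51A1 was at 11.86, 11.56, 11.20 and 11.98, against 9.88 to 11.02 in untreated tissue (median 10.21), a rise of 1.28 ± 0.27 (adjusted p = 0.0044). EBP was at 11.89, 12.16, 11.11 and 12.40 and rose by 1.72 ± 0.27 (adjusted p = 0.00036), the smallest adjusted p among the 27 genes here. All of its samples lay above the untreated range. DHCR7 rose by 1.37 ± 0.31 (adjusted p = 0.008), SQLE by 1.29 ± 0.35 (adjusted p = 0.028) and NSDHL by 0.87 ± 0.23 (adjusted p = 0.023). HSD17B7, at 11.70, 10.68, 11.14 and 11.91, had samples inside the untreated range, and its change of 0.68 had an adjusted p of 0.13.

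On the fatty acid side, ACSS2, which makes acetyl-CoA from acetate, ran from 6.98 to 7.68 in untreated tissue (median 7.27). It was at 8.07, 8.74, 8.19 and 9.15 after 6 days, with no overlap, and rose by 1.25 ± 0.23 (adjusted p = 0.0014). FADS2, the delta-6 desaturase of polyunsaturated fatty acid synthesis, rose by 1.66 ± 0.36 (adjusted p = 0.0058), from 8.07 to 9.35 untreated (median 8.59) to 10.01, 10.70, 9.65 and 10.89. Its other, dimmer probe set differed by -0.15, in the opposite direction. ACLY rose by 0.56 ± 0.17 (adjusted p = 0.047). FASN was at 8.11, 8.29, 8.41 and 9.35. Its change of 0.66 ± 0.21 was near that at 1 day and did not pass (adjusted p = 0.071). ACACA was 0.28 higher and ELOVL6 0.28 lower than untreated tissue, neither past the threshold.

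**Figure D3:**
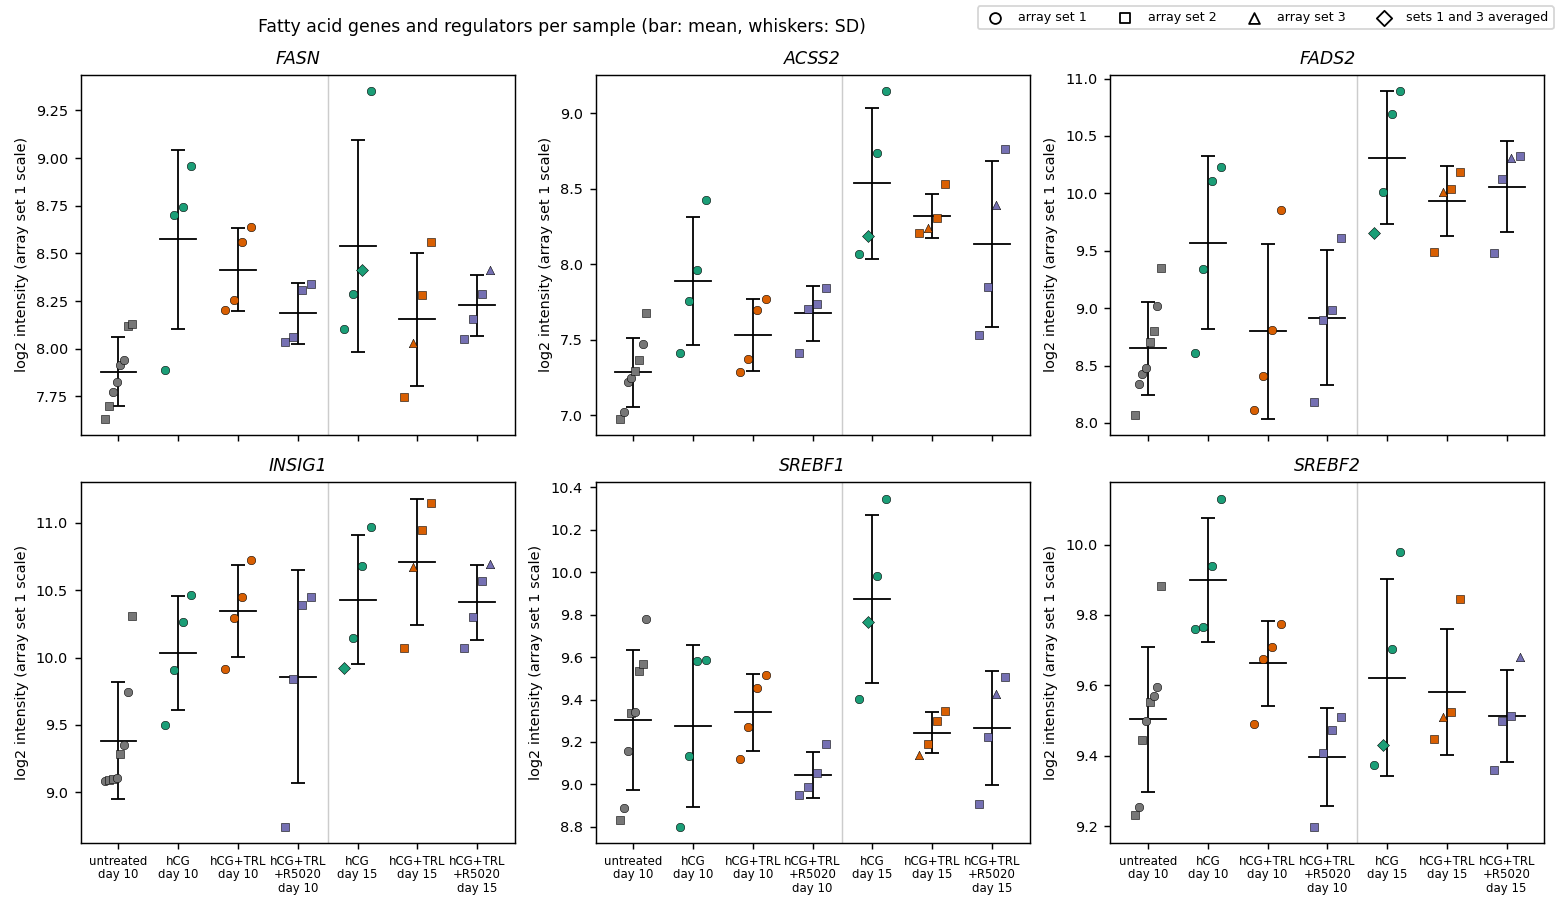
The log2 intensity, on the scale of array set 1, of 3 fatty acid genes and 3 regulators in the 32 samples. Points are samples with their array set as the symbol, bars are group means and whiskers the SD. The day 15 hCG samples of ACSS2 (8.07 to 9.15) lie above all untreated samples, while those of SREBF2 (9.37 to 9.98) lie among them.

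INSIG1 was at 10.68, 10.14, 9.93 and 10.97 after 6 days, and its change of 1.05 ± 0.32 came close to the threshold (adjusted p = 0.052). Without array set 3 it was 1.14 ± 0.33 and passed (adjusted p = 0.045). SREBF1 was at 9.98, 9.40, 9.77 and 10.35, a change of 0.57 ± 0.19 (adjusted p = 0.091). SREBF2 was at 9.70, 9.37, 9.43 and 9.98, a change of 0.12 ± 0.13 (adjusted p = 0.71). The ranges of both factors overlapped with untreated tissue. TMEM97 was 0.72 higher (adjusted p = 0.056), and 0.83 without set 3, where it passed (adjusted p = 0.03). INSIG1 also passed without the array set term (adjusted p = 0.024), and both genes passed within set 1 (adjusted p = 0.019 for INSIG1 and 0.026 for TMEM97).

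The calls for MVD, IDI1, FDFT1, CYP51A1, EBP, ACSS2 and FADS2 held with any 1 sample left out. Leaving out day 15 hCG replicate 4, the highest of its group for 23 of the 27 genes, left 7 genes past the threshold and ended the DHCR7 call (adjusted p = 0.055). The SQLE, NSDHL and ACLY calls ended without hCG replicate 4 and without untreated replicate 1 or 4. SQLE also ended without untreated replicate 2 or hCG replicate 1, NSDHL without hCG replicate 1, and ACLY without untreated replicate 6, 8 or 9 or hCG replicate 3 (adjusted p from 0.051 to 0.21 over these calls). The FADS2 call ended without the array set term (adjusted p = 0.055), and that of ACLY in 6 alternatives, such as quantile normalization or without set 3 (adjusted p from 0.054 to 0.24). Without array set 3, 12 genes passed. Of 11 other probe sets of the risen genes, 7 passed and 10 had the same sign.

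Set directly against each other, 6 days and 1 day of hCG differed in 2 of the 27 genes, both lower at 6 days, against 3.73% of all probe sets lower and 2.87% higher. HSD17B7 fell by 1.00 ± 0.27 on the log2 scale (adjusted p = 0.022), from 11.89, 12.26, 12.54 and 12.75 to 11.70, 10.68, 11.14 and 11.91. Only the highest day 15 sample reached the day 10 range. ELOVL6, which lengthens palmitate, was at 9.99, 10.41, 10.65 and 10.49 after 1 day and at 9.48, 9.20, 9.79 and 9.95 after 6 days. It fell by 0.78 ± 0.22 (adjusted p = 0.034), with no overlap, as did 5.87% of all probe sets in that direction. INSIG1, SREBF1, SREBF2 and FASN differed by 0.40, 0.60, -0.28 and -0.03 (adjusted p from 0.082 to 0.95). Neither call held with every sample left out in turn. HSD17B7 ended without day 10 hCG replicate 3 or 4 or day 15 hCG replicate 2, and ELOVL6 without those or day 10 hCG replicate 2 or day 15 hCG replicate 1 (adjusted p from 0.058 to 0.16). The count was 0 without day 10 hCG replicate 3 or 4, 1 without day 10 hCG replicate 2 or day 15 hCG replicate 1 or 2, and 5 without day 15 hCG replicate 4. It was 0 within set 1, where the changes were -0.95 ± 0.29 for HSD17B7 (adjusted p = 0.081) and -0.72 ± 0.26 for ELOVL6 (adjusted p = 0.15), and 1 without set 3, where ELOVL6 ended. The ELOVL6 call also ended without the array set term, without the filter on low values and with each gene as the mean of its probe sets. Of 5 other probe sets of the called genes, 2 passed and 5 had the same sign.

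Trilostane blocks the step from pregnenolone to progesterone, downstream of cholesterol. Added to 1 day of hCG, it gave no change past the threshold in any of the 27 genes, and 0.00346% of all probe sets passed, 1 of 28911, which was lower. No gene of the 27 reached an unadjusted p under 0.05 in limma, as 3623 of the 28911 probe sets did, and the count was also 0 with eBayes without a trend. Both groups lie in set 1. Of 13 sterol genes, 12 lay below hCG alone, with a median of -0.27 against -0.11 over all genes. Of all genes only 28.5% lay above hCG alone. DHCR7 was at 9.68, 9.92, 10.33 and 9.84 with TRL and differed by -0.39 (95% interval -1.06 to 0.27). HSD17B7 was at 12.72, 11.55, 12.32 and 12.37, a difference of -0.12 (-0.66 to 0.42), and IDI1 at 11.43, 11.21, 11.59 and 11.60, a difference of 0.04 (-0.49 to 0.57). All 3 overlapped with hCG alone. The 13 sterol intervals ran from -1.14 for SQLE to 0.57 for IDI1. FADS2 had the largest difference of the 27, -0.77 (-1.55 to 0.00). Of the regulators, INSIG1 was at 10.29, 9.91, 10.73 and 10.45, a difference of 0.31 ± 0.33, and SREBF1 at 9.12, 9.51, 9.45 and 9.27, a difference of 0.06 ± 0.20. SREBF2 was at 9.71, 9.49, 9.77 and 9.68, a difference of -0.24 ± 0.14, and FASN at 8.20, 8.56, 8.64 and 8.25, a difference of -0.16 ± 0.22. The adjusted p of these 4 genes ran from 0.49 to 0.93.

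Added to 6 days of hCG, TRL again gave no call among the 27 genes, nor among all probe sets (0% called; 1721 had an unadjusted p under 0.05, and eBayes without a trend also gave 0). The sterol genes scattered about 0, with 7 of 13 above it and a median of 0.02, and their intervals ran from -1.04 for EBP to 1.05 for SQLE. IDI1 was at 11.59, 12.21, 11.91 and 11.94 with TRL, EBP at 11.62, 11.75, 11.41 and 11.69, and MVD at 9.41, 10.31, 10.16 and 9.89. Each overlapped with hCG alone. All 7 fatty acid genes lay below 0, with a median of -0.21 against -0.07 over all genes, of which only 36.3% lay above 0. But 6 of the 7 lay above 0 without the array set term (median 0.23), FASN among them (0.20), and 2 of the 7 without set 3 (median -0.33), without centring or with quantile normalization. FASN was at 7.75, 8.56, 8.28 and 8.03, a difference of -0.38 ± 0.29 (adjusted p = 0.91). INSIG1 was at 10.07, 10.94, 11.15 and 10.67, a difference of 0.28 ± 0.43 (adjusted p = 0.95), and SREBF2 at 9.52, 9.84, 9.45 and 9.51, a difference of -0.04 ± 0.18 (adjusted p = 0.99).

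SREBF1 was the one gene of the 27 with an unadjusted p under 0.05 for TRL at day 15. It was at 9.19, 9.35, 9.30 and 9.14 with TRL and at 9.98, 9.40, 9.77 and 10.35 with hCG alone. The groups did not overlap, as was so for 5.71% of all probe sets in that direction. The difference of -0.63 ± 0.27 (95% interval -1.17 to -0.08) did not pass (adjusted p = 0.77), and it was -0.62 ± 0.30 without array set 3 and -0.21 ± 0.26 without the array set term. The TRL effect on SREBF1 at day 15 minus that at day 10 was -0.69 ± 0.33 (unadjusted p = 0.048, adjusted p = 1 after rounding, limma), and no probe set passed for that difference (0% called, 939 at an unadjusted p under 0.05). Day 15 hCG with and without TRL lie mostly in different array sets, joined through the untreated samples and set 3. Nearly all of these hCG arrays bear the reanalysis mark and no TRL array does. Without the array set term, 13 of 13 sterol genes lay above 0 for TRL at day 15 (median 0.20), so the direction of this list depends on that term. With day 15 hCG replicates 3 and 5 as 2 samples it was 12 of 13 (median 0.12). Without array set 3 the median was -0.07, with 2 of 13 above 0.

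**Figure D4:**
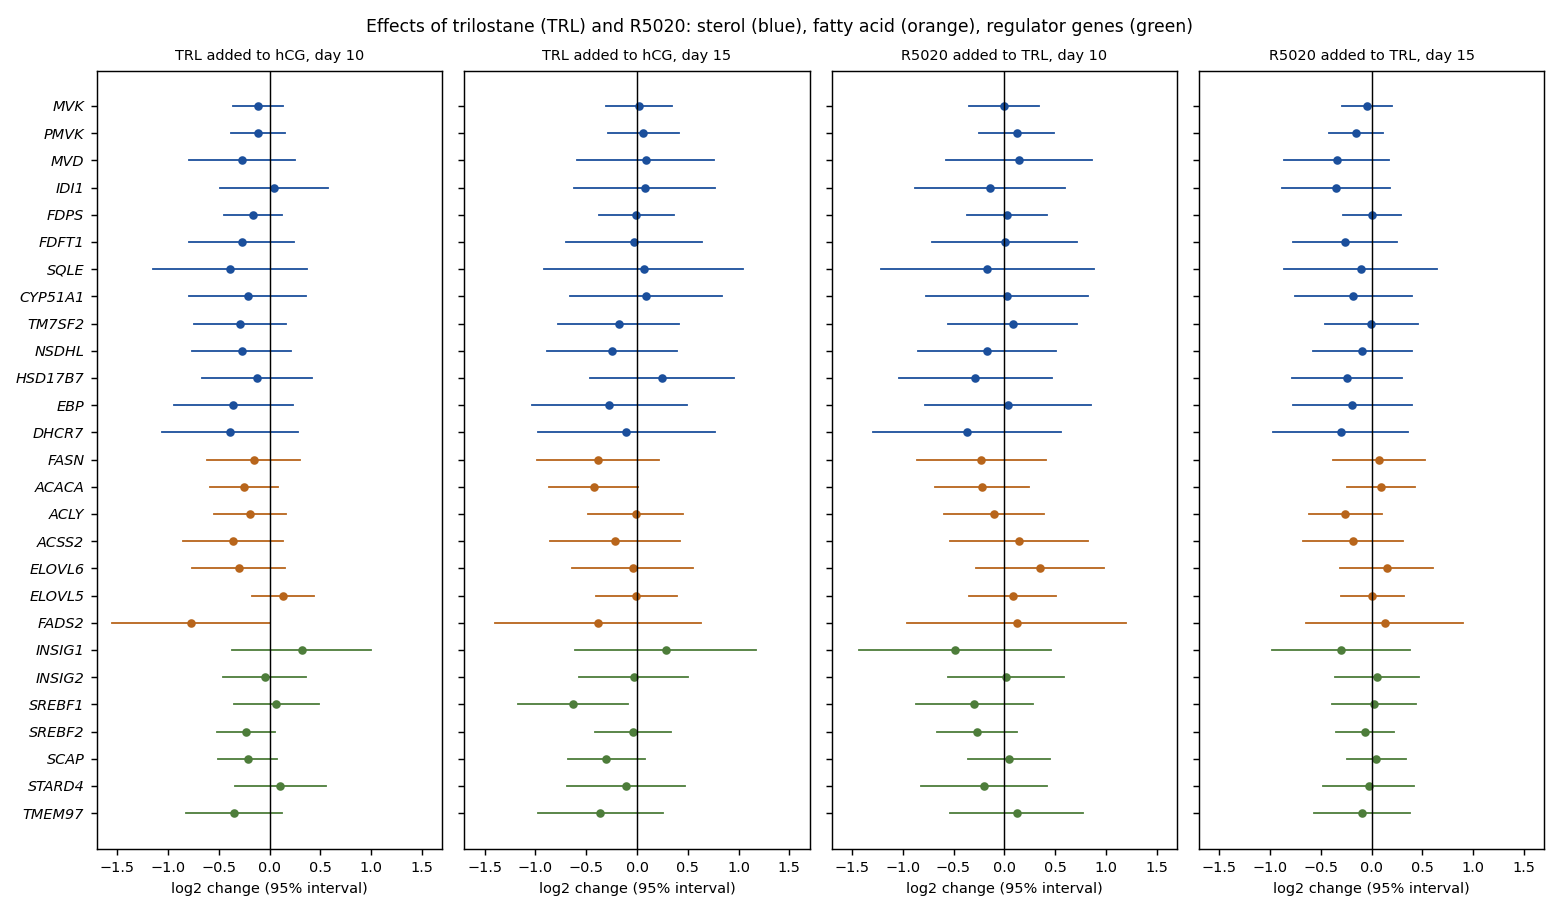
Fitted log2 change and 95% interval of each of the 27 genes when TRL is added to hCG and when R5020 is added to hCG and TRL, on day 10 and day 15. Sterol genes are blue, fatty acid genes orange and regulators green, and no change reaches an adjusted p under 0.05. The interval of SREBF1 for TRL at day 15 (-1.17 to -0.08) is the only one that leaves out 0.

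R5020 replaces the progestin signal that TRL removes. Added to hCG and TRL, it gave no call among the 27 genes on day 10 or day 15 and none among all probe sets (0% called on either day). An unadjusted p under 0.05 was reached by none of the 27 on either day, and by 873 and 1031 probe sets in limma, and eBayes without a trend also gave 0. On day 10 the sterol genes had a median of 0.00, with 7 of 13 above 0 and intervals from -1.30 for DHCR7 to 0.88 for SQLE. Those groups lie in different array sets, and the median was 0.26 (10 of 13 above 0) without the array set term and -0.09 (3 of 13) without set 3. INSIG1 was at 8.75, 10.45, 9.84 and 10.39 with R5020 on day 10. Replicate 1 lay far below the others, and the difference was -0.49 ± 0.46. SREBF1 was at 9.19, 9.05, 8.99 and 8.95 (-0.29 ± 0.28), SREBF2 at 9.20, 9.41, 9.47 and 9.51 (-0.27 ± 0.19) and FASN at 8.06, 8.34, 8.04 and 8.31 (-0.23 ± 0.31). All 3 overlapped with TRL alone, and all adjusted p were 1 after rounding. Without the array set term their signs turned, to 0.30 for SREBF1, 0.21 for SREBF2 and 0.50 for FASN. Replicate 1 of the day 10 R5020 group was the lowest of its group for 18 of the 27 genes.

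On day 15, R5020 left 1 of 13 sterol genes above 0, against 58.1% of all genes, with a median of -0.18 against 0.02 over all genes. IDI1 was at 11.68, 11.59, 11.28 and 11.71 with R5020 (-0.35, 95% interval -0.88 to 0.18), MVD at 9.50, 10.00, 9.11 and 9.79 (-0.35, -0.86 to 0.17) and FDFT1 at 11.99, 12.28, 11.54 and 12.28 (-0.27, -0.78 to 0.25). Replicate 3 was the lowest of the 4 for 20 of the 27 genes. INSIG1 was at 10.57, 10.30, 10.07 and 10.70 (-0.30 ± 0.33), SREBF1 at 9.51, 8.91, 9.23 and 9.42 (0.02 ± 0.20), SREBF2 at 9.51, 9.50, 9.36 and 9.68 (-0.07 ± 0.14) and FASN at 8.16, 8.29, 8.05 and 8.41 (0.07 ± 0.22). Each overlapped with TRL alone, and all adjusted p were 1 after rounding. Without array set 3, and so without the near-identical replicate 4 arrays, the sterol median was -0.27, again with 1 of 13 above 0 and no call. The R5020 effect on day 15 minus that on day 10 passed for none of the 27 genes and no probe set (0% called; none of the 27 and 973 probe sets at an unadjusted p under 0.05).

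The groups given TRL, or TRL and R5020, were also set against untreated tissue. On day 10, hCG with TRL had 3 of 27 genes higher and none lower, against 1.14% and 1.44% of all probe sets. They were HSD17B7 (1.56 ± 0.26, adjusted p = 0.0014), DHCR7 (1.48 ± 0.32, adjusted p = 0.01) and IDI1 (1.07 ± 0.26, adjusted p = 0.022). Within set 1 the untreated arrays bear the reanalysis mark and the TRL arrays do not, so mark and treatment cannot be told apart there. None of these 3 genes overlapped with untreated tissue, as was so for 1.75% of all probe sets in that direction. The median of the 13 sterol genes was 0.68, with 12 above 0. INSIG1 was 0.96 ± 0.33 higher (adjusted p = 0.13) and FASN 0.54 ± 0.22 (adjusted p = 0.23). SREBF1 and SREBF2 differed by 0.04 ± 0.20 and 0.16 ± 0.14. The IDI1 call ended without untreated replicate 1 or 4 or TRL replicate 1, 3 or 4 (adjusted p from 0.051 to 0.079), which left 2 genes.

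With R5020 as well on day 10, HSD17B7 alone rose, against 0.463% of all probe sets higher and 0.633% lower. It was at 11.87, 11.84, 12.10 and 11.99, above every untreated sample as were 1.5% of all probe sets, a rise of 1.27 ± 0.26 (adjusted p = 0.011). The call ended without untreated replicate 9 (adjusted p = 0.06), and a further gene passed without untreated replicate 7 or R5020 replicate 1. The median of the sterol genes was 0.69. INSIG1 differed by 0.47 ± 0.33, SREBF1 by -0.26 ± 0.20, SREBF2 by -0.11 ± 0.14 and FASN by 0.31 ± 0.22 (adjusted p from 0.68 to 0.87). Without the array set term 7 genes passed here.

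On day 15, hCG with TRL had 11 of 27 genes higher and 1 lower, against 4.15% and 4.08% of all probe sets. Risen were 8 of 13 sterol genes, with a median over the 13 of 1.18. They included IDI1 (1.52 ± 0.26, adjusted p = 0.00059), MVD (1.28 ± 0.26, adjusted p = 0.0023) and EBP (1.44 ± 0.29, adjusted p = 0.0024). CYP51A1, at 11.58, 12.03, 11.63 and 11.72, rose by 1.37 ± 0.28 (adjusted p = 0.0032). FDFT1, at 12.03, 12.67, 12.25 and 12.20, rose by 1.18 ± 0.25 (adjusted p = 0.0043). ACSS2, at 8.21, 8.31, 8.53 and 8.24, rose by 1.04 ± 0.24 (adjusted p = 0.008). None of these 6 genes overlapped with untreated tissue, against 4.91% of all probe sets in that direction. DHCR7, SQLE, HSD17B7 and FADS2 rose too, by 1.26, 1.35, 0.93 and 1.28 (adjusted p from 0.017 to 0.037), again with no overlap. The FADS2 call ended with each gene as the mean of its probe sets.

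Of the regulators, 1 was higher and 1 lower in day 15 TRL tissue. INSIG1, at 10.07, 10.94, 11.15 and 10.67, rose by 1.33 ± 0.34 (adjusted p = 0.014), with its lowest sample inside the untreated range. SCAP ran from 11.36 to 12.03 in untreated tissue (median 11.66) and was at 11.15, 11.46, 10.98 and 11.17. It fell by 0.48 ± 0.14 (adjusted p = 0.037), and 1 TRL sample lay in the untreated range. Within set 2, 8 genes passed and these were not among them (adjusted p = 0.087 for INSIG1 and 0.068 for SCAP), and the SCAP call also ended without the array set term (adjusted p = 0.069) and without the filter on low values. SREBF1, SREBF2 and FASN differed by -0.06 ± 0.21, 0.08 ± 0.14 and 0.28 ± 0.23 (adjusted p from 0.52 to 0.91). The calls for MVD, IDI1, FDFT1, CYP51A1, EBP and ACSS2 held with any 1 sample left out. The other 6 ended without at least 1 of untreated replicates 6, 7, 8 and 9 or of the 4 TRL samples (adjusted p from 0.054 to 0.14), and the count was 7 without untreated replicate 9 or TRL replicate 2, the highest of its group for 22 of the 27 genes. Without array set 3, 10 genes passed, but the SQLE, HSD17B7 and FADS2 calls ended. The SQLE and FADS2 calls also ended within set 2 (adjusted p of 0.1 and 0.061, limma). Of 11 other probe sets of the called genes, 9 passed in the same direction and 10 had the same sign.

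With R5020 as well on day 15, 6 of 27 genes rose and none fell, against 1.56% of all probe sets higher and 1.56% lower. IDI1 rose by 1.17 ± 0.26 (adjusted p = 0.011) and MVD by 0.94 ± 0.26 (adjusted p = 0.041). EBP, at 11.49, 11.56, 10.90 and 11.74, rose by 1.25 ± 0.29 (adjusted p = 0.014). CYP51A1, at 11.66, 11.65, 11.11 and 11.80, rose by 1.19 ± 0.28 (adjusted p = 0.018). FDFT1 rose by 0.91 ± 0.25 (adjusted p = 0.045). FADS2, at 10.32, 10.12, 9.48 and 10.31, rose by 1.41 ± 0.38 (adjusted p = 0.041). The R5020 samples of FDFT1 and MVD reached into the untreated range and those of the other 4 genes did not, as was so for 3.64% of all probe sets in that direction. INSIG1 was 1.03 ± 0.34 higher (adjusted p = 0.097) and passed without the array set term (1.26, adjusted p = 0.0083), and SREBF1, SREBF2 and FASN differed by -0.04 ± 0.21, 0.01 ± 0.14 and 0.35 ± 0.23 (adjusted p from 0.49 to 0.99). None of these 6 calls held with every sample left out in turn. The count was 0 without R5020 replicate 1, 1 without R5020 replicate 2 or 4, 2 without untreated replicate 9, 3 without untreated replicate 6 or 8 and 10 without untreated replicate 7. It was 1 without array set 3 (IDI1, 1.08 ± 0.28, adjusted p = 0.049), 0 within set 2 and 12 without the array set term. The FADS2 and FDFT1 calls also ended with each gene as the mean of its probe sets. Of 7 other probe sets of the risen genes, 4 passed and 6 had the same sign.

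**Figure D5:**
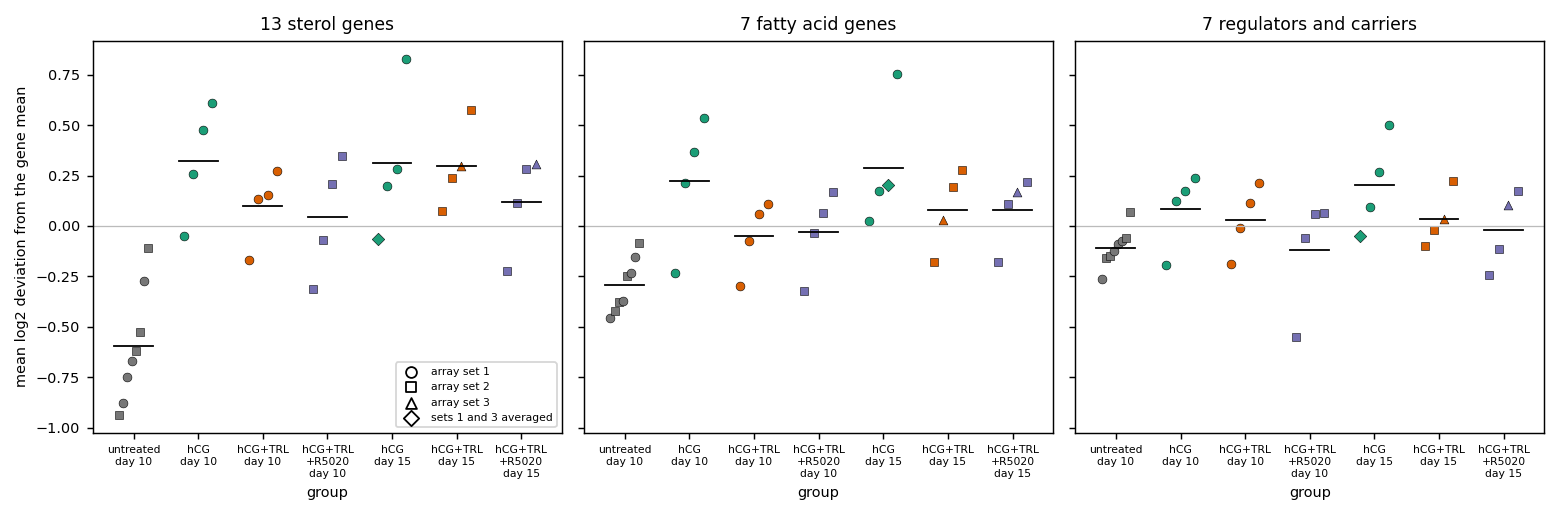
Mean deviation of each sample from the gene means, on the log2 scale, over the 13 sterol genes, the 7 fatty acid genes and the 7 regulators. Points are the 32 samples with their array set as the symbol, and bars are group means. The sterol mean runs from -0.94 to -0.11 in the untreated samples and from -0.05 to 0.61 in the day 10 hCG samples, while the regulators overlap throughout.

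Averaged over the 13 sterol genes, the untreated samples ran from -0.94 to -0.11 about the mean of all samples on the log2 scale (median -0.65). The day 10 hCG samples ran from -0.05 to 0.61, those with TRL from -0.17 to 0.27 and those with R5020 from -0.31 to 0.35. On day 15 the ranges were -0.06 to 0.83 with hCG, 0.07 to 0.58 with TRL and -0.22 to 0.31 with R5020. Only the R5020 groups and day 10 TRL reached into the untreated range. The 7 fatty acid genes ran from -0.46 to -0.08 in untreated tissue and from -0.23 to 0.54 with 1 day and 0.02 to 0.75 with 6 days of hCG. For the regulators every treated group overlapped with the untreated range of -0.27 to 0.07. Averages of this kind carry the choice of genes and were not tested.

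Genes next to the pathway were looked at as a list of 30, of which 17 had a kept probe set. After 1 day of hCG 1 was higher and 2 were lower, against 3.41% and 1.28% of all probe sets. ACSL1, which activates long-chain fatty acids, rose by 1.45 ± 0.19 (adjusted p = 0.0001), against at most 0.92 among the fatty acid synthesis genes. LBR, a sterol reductase of the nuclear envelope that does the same chemistry as TM7SF2, fell by 0.60 ± 0.12 (adjusted p = 0.0048) while TM7SF2 rose. IDH1, a source of NADPH, fell by 0.39 ± 0.11 (adjusted p = 0.032). After 6 days 3 were higher and none lower, against 3.31% and 1.69% of all probe sets. ACSL1 rose by 0.88 ± 0.19 (adjusted p = 0.0052), IDH1 by 0.50 ± 0.10 (adjusted p = 0.0034) and SLC25A1, the mitochondrial citrate carrier, by 0.52 ± 0.15 (adjusted p = 0.047). Between 6 days and 1 day, IDH1 was 0.89 ± 0.11 higher (adjusted p = 9.5e-06) and ME1, the malic enzyme, 0.53 ± 0.15 (adjusted p = 0.027), and none of the 17 was lower. Over all probe sets 2.87% were higher and 3.73% lower. For the addition of TRL or of R5020 none of the 17 passed, and at most 0.00346% of all probe sets did. Against untreated tissue, day 10 TRL had ACSL1 higher by 1.16 and LBR lower (-0.47), and day 10 R5020 had ACSL1 higher by 0.81 and MYLIP lower (-0.82). Day 15 TRL had ACSL1, IDH1 and ERG28 higher by 0.64, 0.49 and 0.76, and day 15 R5020 had IDH1 higher by 0.50. Of all probe sets 1.14% were higher and 1.44% lower with day 10 TRL, and 0.463% and 0.633% with day 10 R5020. The shares were 4.15% and 4.08% with day 15 TRL, and 1.56% and 1.56% with day 15 R5020.

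The tissue is whole corpus luteum, in which fewer cells of a type and less RNA per cell cannot be told apart, so markers of its cell types were read beside these results. With 1 day of hCG against untreated tissue, none of the 6 luteal, 6 adipocyte, 6 macrophage, 7 endothelial and 5 fibroblast markers measured passed in either direction. Over all probe sets 3.41% were higher and 1.28% lower. The luteal list had a median change of 0.32, 5 of 6 above 0, with sample means of 0.20 to 0.41 against -0.49 to 0.28 untreated. The fibroblast list had a median of -0.44, 1 of 5 above 0, with sample means of -0.79 to -0.15 against -0.70 to 0.63. The part of these shifts in the 1 day results was not tested. With 6 days, STAR was higher by 0.30 and HSD3B2, the luteal enzyme that trilostane inhibits, lower, at 12.33 against 13.33 untreated, and no marker of the other cell types passed. The shares of all probe sets were 3.31% higher and 1.69% lower. In day 15 TRL tissue HSD3B2 was at 10.92 and FDXR, which feeds electrons to the first steroidogenic enzyme, lower (-0.75). There, 3 of 6 macrophage markers were higher (AIF1 by 1.69, CSF1R by 1.06 and CD68 by 0.98), 2 of 6 adipocyte markers were higher (CFD and FABP4), and of the fibroblast markers DCN was higher and COL1A1 lower. Of all probe sets 4.15% were higher and 4.08% lower in that tissue. In day 15 R5020 tissue CD68, CFD and STAR were higher by 0.94, 0.83 and 0.23, and HSD3B2 was at 11.38. The shares of all probe sets were 1.56% higher and 1.56% lower there. Averaged over each list, the macrophage markers ran from -0.86 to 0.44 in untreated and 0.26 to 1.04 in day 15 TRL tissue, the adipocyte markers from -0.32 to 0.00 and 0.39 to 0.54, and the luteal markers from -0.49 to 0.28 and -0.50 to -0.34. The median change in that comparison was 1.02 over the macrophage markers, 5 of 6 above 0. Over the adipocyte markers it was only 0.08, 5 of 6 above 0, with changes from -0.01 to 2.42. Over the luteal markers it was -0.03, 3 of 6 above 0, with changes from -2.41 to 0.62. The adipocyte and luteal averages thus rest on a part of each list. ADIPOQ, the adipocyte hormone, had group means from 8.42 to 8.69. The part of these shifts in the SREBP gene results of day 15 was not tested.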

How the data were processed

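Dissected luteal tissue was measured on 33 Affymetrix Rhesus Genome arrays. The deposited values are 1 log2 intensity per probe set and array, from 2.60 to 15.12, and the scale was read from the values. How the authors summarised and normalized them is not given in the sources used here. Gene names came from the platform annotation. Of 52766 probe sets without controls, 28911 exceeded the median of all values (6.19) on at least 4 arrays and were kept, 17606 of them with 1 symbol, 240 with several and 11065 with none. Each array was centred on its median (6.14 to 6.32 before). limma 3.58.1 (R 4.3.3) fitted group and array set over 32 samples (23 residual degrees of freedom, median residual SD 0.21), eBayes used a trend, and p-values were adjusted by Benjamini-Hochberg over all kept probe sets, two-sided, in each of 13 comparisons. The script was tested on simulated data. The number of arrays limits the precision. Each gene is represented by the kept probe set of highest mean. The genes, the neighbour list and the marker lists were chosen with earlier results of these data known. In full are given, per comparison, the 6 genes with the smallest adjusted p past the threshold and always INSIG1, SREBF1, SREBF2 and FASN. Other genes appear by counts or value. Alternatives left out the array set term, the centring, the filter, the trend, set 3 or each sample in turn, used quantile normalization, sets 1 or 2 alone, a replicate block, the mean of a gene's probe sets, or replicates 3 and 5 of day 15 hCG as 2 samples. Promoter motifs were not analysed here.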

Additional observations from a re-analysis of the deposited data

Results flagged for a closer look

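Single samples stood apart from the rest of their group, by Dixon's test at the 95% level, in 10 of 189 combinations of a gene and a group. Chance gives about 1 in 20. Among the sterol genes, MVD in day 15 hCG replicate 4 was at 10.68 against 9.60 in the nearest sample, and SQLE in day 15 R5020 replicate 3 at 9.39 against 10.04. NSDHL in day 15 TRL replicate 2 was at 10.68 against 10.45. MVK in day 15 R5020 replicate 1 was at 7.73 against 7.84, and PMVK in untreated replicate 7 at 9.05 against 8.87. Among the fatty acid genes, ACLY and ELOVL6 in day 10 R5020 replicate 1 were at 9.78 and 10.04, below the nearest samples at 10.30 and 10.52. Among the regulators, INSIG2 in untreated replicate 7 was at 8.95 against 9.67, INSIG2 in day 15 R5020 replicate 1 at 9.90 against 9.72, and SCAP in day 10 R5020 replicate 2 at 11.93 against 11.70.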

How the results depend on the processing

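The number of the 27 genes past the threshold moved under several alternatives. For 6 days against 1 day of hCG it moved from 2 to 1 without the array set term, without the filter on low values, without array set 3 or with each gene as the mean of its probe sets, and to 0 within set 1. With the replicate block it was again 2, but 1 higher and 1 lower in place of 2 lower, with HSD17B7 at an adjusted p of 0.07. For day 15 R5020 against untreated tissue it moved from 6 to 12 without the array set term, 3 without the filter, 1 without set 3 and 0 within set 2. For day 10 R5020 against untreated tissue it moved from 1 to 7 without the array set term. With the replicate number as a block, the count against untreated tissue was 0 for day 15 TRL and for R5020 on day 10 and on day 15, and SCAP in day 15 TRL reversed to 0.29 (SE 0.52, limma adjusted p = 0.98). In that block untreated replicates 6 to 9 have no partner, so set 2 is joined to set 1 only through set 3. Whether the numbers pair the samples is not settled. The block and the correlations given next used the replicate numbers. In the array titles, replicates 2 to 4 of day 15 TRL and replicate 4 of day 15 R5020 bear other numbers. Pairs by title number were not tested. After group and array set were removed, 14 of 44 correlations of same-numbered samples exceeded 0.1, over a range from -0.56 to 0.47. The lowest was that of the near-identical replicate 4 arrays of day 15 TRL and day 15 R5020, so this check cannot exclude pairing. Leaving out each sample in turn gave 2 to 12 genes for 1 day of hCG, 7 to 13 for 6 days and 0 to 5 for 6 days against 1 day. It gave 0 to 0 for the addition of TRL or R5020 and for the differences between days. Against untreated tissue it gave 2 to 3 for day 10 TRL, 7 to 12 for day 15 TRL, 0 to 2 for day 10 R5020 and 0 to 10 for day 15 R5020. The causes of these shifts were not tested. Of the changes of single genes under the other alternatives, 70 lost their call and 7 gained one, all with the direction kept. In addition, 1 called change reversed. The other 452 were counted as unchanged, although they include sign changes of genes not past the threshold. SREBF2 for 6 days of hCG, for example, was above 0 with the array set term and at -0.08 without it.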

Other observations

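After the group and array set means were removed, the sterol genes still varied together from sample to sample. Over 32 samples, which share arrays and array sets, the median correlation was 0.64 over 78 pairs of sterol genes, 70 of them above 0. It was 0.44 over 21 pairs of fatty acid genes, 0.33 over 21 pairs of regulators, 0.48 between sterol and fatty acid genes and 0.40 between sterol genes and regulators. Between the 27 genes and all other genes it was 0.09. FDFT1 had the highest median correlation with the sterol genes (0.82), followed by SQLE (0.78), EBP (0.77) and DHCR7 (0.75). Among the regulators, INSIG1 had 0.72 and SREBF2 0.59, while SREBF1 had 0.09 and INSIG2 -0.08. FDPS, though a sterol synthesis enzyme, had -0.08. These correlations are descriptions and were not tested.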
